A study of Mus musculus with 8 samples.

Results

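Flag-MBD6 CLIP peaks were the 18805 places on RNA at which mouse embryonic stem cells (mES cells) carrying Flag-tagged MBD6 gave more reads after immunoprecipitation than in the matched input. They came from 2 libraries, with 9218 peaks in replicate 1 and 9587 in replicate 2, among 29555 peaks in the 4 CLIP libraries of the series. Peaks on the same strand that shared at least 1 bp were merged, and the 7484 merged regions with peaks of both libraries are called reproducible MBD6 regions. CLIP crosslinks protein to RNA with ultraviolet light, pulls down the protein, trims the RNA with a ribonuclease and sequences what is left. The cells were wild-type mES cells that stably overexpressed the coding sequence of human MBD6 from the 3XFlag hygromycin vector, delivered by lentivirus and kept under hygromycin B. They grew with LIF, CHIR99021 and PD0325901, and feeder cells were removed by passage on gelatin. The labels name a Flag antibody for these samples, while the shared extraction protocol names an MBD6 antibody, and the labels give embryos as the tissue beside the cell line. Overexpression above the endogenous protein, and a human protein in mouse cells, limit the lines as a model of endogenous MBD6. CLIP with no Flag protein was not analysed here.

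MBD6 belongs to the methyl-CpG-binding domain family and joins the Polycomb repressive deubiquitinase (PR-DUB), in which BAP1 with an ASXL partner removes ubiquitin from histone H2A. The study asked whether MBD6 recognises RNA that carries 5-methylcytosine (m5C), a base that NSUN enzymes and TRDMT1 write and that TET enzymes can oxidise. The peak lists address where on RNA MBD6 was crosslinked.

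The sequences at which the leading regions began are shown first, because the base composition at these ends recurs in the results. Each is the first 30 nt of a reproducible region on the transcript, from GENCODE M21 (mm10), and capitals mark GAAGA with its overlapping repeats, the most enriched 5-mer in coding sequence. The first 6 are the exonic coding sites chosen by summit reads or by fold enrichment. The next 4 are the best coding regions of Tet1, Tet2, Asxl1 and Nsun2, genes of the m5C and PR-DUB lists. These 4 genes were not the highest of their lists by fold: Nop2, not shown, reached 28.3 and 30.6. The last pair are leading non-coding sites.
Hsp90ab1, coding exon 6 of 11, chr17:45570533-45570562, minus strand: agaaggaacgggagaaggagatcagtgatg
Trap1a, coding exon 1 of 3, chrX:139334201-139334230, plus strand: atgaggatGAAGAcgatgaggatgatgagg
Hsp90b1, exon 12 of 13 of a non-coding transcript, chr10:86691724-86691753, minus strand: tttaggtggagGAAGAaccaGAAGAAGAgc
Nrd1, coding exon 2 of 31, chr4:109013573-109013602, plus strand: taagacaggaaatgcaacagatGAAGAgga
Eif3a, coding exon 12 of 22, chr19:60773009-60773038, minus strand: aagagaaaGAAGAacagcatcaattggcag
Srek1, coding exon 9 of 12, chr13:103752654-103752683, minus strand: cgagaaaaggtgaaggaaagagtgaaggag
Tet1, coding exon 4 of 13, chr10:62839148-62839177, minus strand: catccacgattaatcacatcaacgccgagg
Tet2, coding exon 10 of 11, chr3:133469606-133469635, minus strand: tcaccctcaatagaGAAGAcaatcgagaag
Asxl1, coding exon 11 of 13, chr2:153396766-153396795, plus strand: acaggaaatggaaaaggaGAAGAaggtgga
Nsun2, coding exon 2 of 19, chr13:69612308-69612337, plus strand: aaggtggctatcccgagatcgtaaaggaga
Rnu3a, exon 1 of 1, chr10:40258492-40258521, plus strand: ctatagtttgttactagagaagtttctctg
Malat1, exon 1 of 1, chr19:5802103-5802132, minus strand: atggaagtgttaggctagccgggcgatggt
Most of the coding windows are purine-rich runs of A and G, while the U3 window from Rnu3a is not.

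Both libraries gave nearly the same picture. The deposited fold enrichment is the peak caller's ratio of reads at the summit to the rate in the input, each plus 1. It ran from 2.50 to 125 in replicate 1 (median 10.9) and from 2.33 to 118 in replicate 2 (median 11.1). From each peak's fold and p-value the whole number of reads at its summit could be solved for 100% of peaks, with a median of 20 reads in replicate 1 and 21 in replicate 2. The flat genome rates correspond to 983918 and 1111742 reads kept for peak calling. Of the peaks, 81.9% of replicate 1 and 78.6% of replicate 2 lay in reproducible regions. These had a median fold of 12.4 and 12.9, against 7.58 and 7.95 for peaks found in a single library.

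Across the 7484 regions the log2 fold enrichment of the libraries correlated with Pearson's r of 0.85, a description over regions that share libraries and inputs. The difference between libraries ran from -0.65 to 0.71 log2 units between its 5th and 95th percentiles, and 97.1% of regions agreed within 2-fold. At the 775 regions with at least 120 summit reads in sum, the chi-square of the reads per degree of freedom was 0.46, so the libraries differed by less than the sampling noise. Duplicate reads had been collapsed and at most 5 per position kept before this point. They were therefore counted as 1 sample: both values are given throughout, with no SD and no test. The labels do not say that the libraries came from separate cultures.

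**Figure D1:**
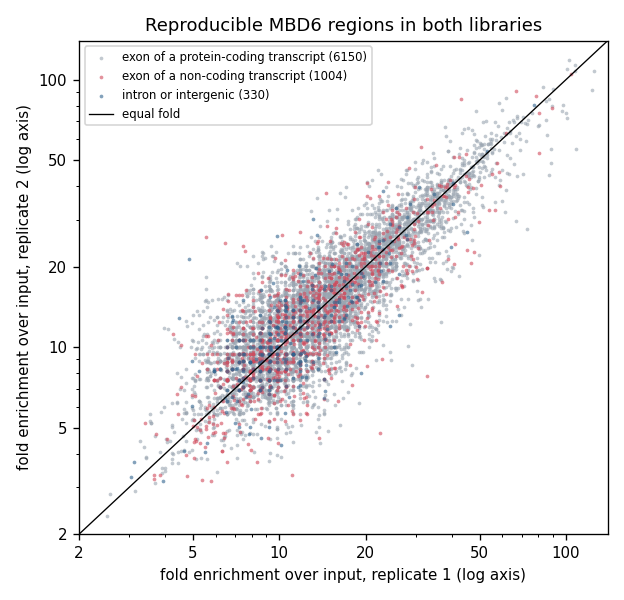
Fold enrichment over input of the 7484 reproducible MBD6 regions in replicate 1 (horizontal, log axis) and replicate 2 (vertical, log axis), each point a region, coloured by where the region began, with the line of equal fold. The points follow the line in all 3 colours and spread more widely around it at low fold than at high fold.

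Most MBD6 regions lay in the coding sequence. Reads with more than 10 best placements had been discarded before peak calling, so RNA of high-copy repeats is largely outside these lists. Repeat RNA was not examined here. Taken at 15 nt from the 5′ end, 5972 of 7484 regions (79.8%, 95% Wilson interval 78.9 to 80.7) were in coding sequence. A further 1004 (13.4%) were in exons of non-coding transcripts. Introns held 178 regions (2.38%), intergenic sequence 152 (2.03%), 5′ UTRs 96 (1.28%) and 3′ UTRs 82 (1.10%). The coding share was 79.4% among the peaks of replicate 1 and 79.3% in replicate 2. Intervals here cover counting error only. The share depended on the point that was read: it was 55.8% at the midpoint and 58.5% at the summit, where introns held 22.97% and 19.9%. Reads were extended along the genome to 150 nt without splicing, so that midpoints and summits can pass the end of an exon.

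Read near the 5′ end, regions in 3′ UTRs were few for the size of these UTRs. In the 2822 protein-coding transcripts that held a region, 3′ UTRs made up 36.3% of the bases but held 1.33% of the 6150 regions. The coding sequence made up 58.3% of the bases and held 97.1% of the regions, and 5′ UTRs made up 5.40% and held 1.56%. A position that was coding in any transcript counted as coding. Of all regions, 3′ UTRs held 1.10% at this point, 3.67% at the midpoint and 3.61% at the summit. Regions in coding sequence had a median fold of 12.9, against 11.0 in 5′ UTRs, 10.6 in 3′ UTRs, 11.98 in non-coding exons, 10.4 in introns and 11.2 between genes. Within the coding sequence the regions were spread from end to end. Cut into 10 equal parts, the sequence held 12.1% of them in part 2, the most, and 7.13% in part 10, the fewest.

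**Figure D2:**
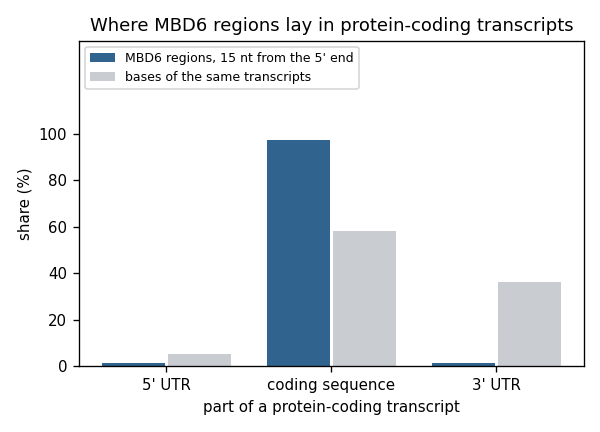
Share of MBD6 regions (dark bars, 6150 regions) and of bases (light bars) in the 5′ UTR, coding sequence and 3′ UTR of the 2822 protein-coding transcripts that held a region, in percent. The 3′ UTR bars stand at 1.33% of regions and 36.3% of bases.

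The 5′ ends in coding sequence followed G and opened A-rich sequence. Of 5654 coding windows of 30 nt, 75.5% (Wilson interval 74.4 to 76.6) came right after G, 19.6% after C, 3.33% after T and 1.57% after A. G made up 25.9% of all positions of the same coding sequences. RNase T1, which cuts RNA after G, was applied to the CLIP and the input samples, and its part in this share was not tested. The windows held 38.7% A, 26.3% G, 19.96% C and 15.1% T. All 7114679 bases of the same 2701 coding sequences held 28.5% A, 25.9% G, 24.2% C and 21.4% T. A was thus more frequent and T and C less frequent after the 5′ end, while G was close to its level in the whole coding sequence. The first base was A in 56.0% of windows, and A had been at 36.5% a pair of bases before the end.

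**Figure D3:**
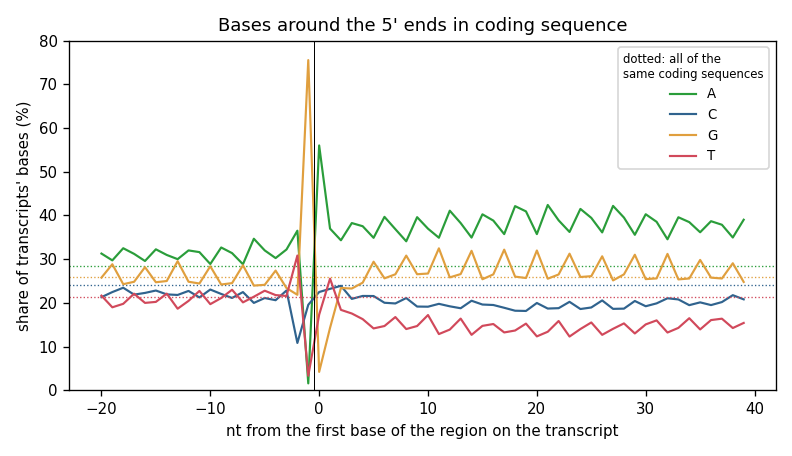
Share of A, C, G and T (percent, vertical) at each position from 20 nt before to 39 nt after the first base of the region (horizontal, nt; position 0 is the first base), over 5654 coding windows. Dotted lines give each base over all of the same coding sequences. G peaks at 75.5% right before the region, and A stays above its dotted line throughout the bases that follow.

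Purine-rich 5-mers led the windows. GAAGA, searched on the transcript strand, was in 46.6% of the coding windows (Wilson interval 45.3 to 47.9) against 11.4% of all 7036350 windows of 30 nt in the same coding sequences. By occurrences it made up 2.31% of 5-mer positions against 0.504%, a ratio of 4.58 and the highest of the 672 5-mers ranked, which were those seen at least once per 100 windows. AAGAA, which overlaps it, was in 36.6% of windows against 10.2%. GACGA came next in the ranking with 0.314% of positions against 0.0774%, a ratio of 4.06. The pattern was not carried by the strongest regions alone. GAAGA was in 48.3% of the 1952 coding windows with a mean fold of 8 to 12 and in 48.9% of the 188 with a mean fold of at least 40. In the 105 windows with a mean fold under 6 it was in 23.8% (Wilson interval 16.7 to 32.8), and A was at 31.5%.

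The sequence contexts known for RNA m5C writers were less frequent in the reproducible coding windows than in all windows. CTCCA, the context known for NSUN6, was in 3.71% of coding windows against 4.84% of all windows of that length. CNGGG, in which N is any base and which is the context known for NSUN2, was in 6.65% against 9.52%. The coding windows also held less C and T than the same coding sequences, at 19.96% C against 24.2% and 15.1% T against 21.4%. Whether CTCCA and CNGGG were less frequent than this base composition alone would give was not tested. Only the first 30 nt of each region were searched, while regions were at least 150 bp wide. In coding windows of peaks seen in a single library, CTCCA was in 6.54% for replicate 1 and 4.92% for replicate 2. These matches describe letters in the windows and say nothing of whether a C was methylated, which was not measured here. Of the 10 windows of protein-coding genes shown, 6 held GAAGA.

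In codons, the windows were rich in glutamate and lysine. GAA, a glutamate codon, made up 9.49% of in-frame codons in the windows against 3.92% in the same coding sequences, a ratio of 2.42. AAG and AAA, the lysine codons, made up 8.28% against 3.96% and 4.99% against 3.06%. Summed by amino acid, glutamate made up 15.6% against 8.47%, lysine 13.3% against 7.02% and aspartate 7.57% against 5.37%. Cysteine was at 0.611% against 1.73% and phenylalanine at 1.47% against 3.09%. GAA and AAG were more enriched than the other codons of their amino acids, since GAG had a ratio of 1.33 and AAA of 1.63. These are residues encoded at the crosslinked RNA, and the proteins themselves were not measured.

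MBD6 target genes were taken as genes with a reproducible region in an exon. There were 2832 among 22028 protein-coding genes (12.9%), the background for the lists that follow. A single region was seen in 1526 of them (53.9%), while 590 had 2, 425 had 3 to 4, 244 had 5 to 9 and 47 had 10 or more. Over all protein-coding genes there were 0.176 exonic regions per kb of coding sequence, and the median best fold of the target genes was 14.8. Only 23 regions were assigned to more than 1 protein-coding gene. RNA levels were not measured here. Peaks are called over input, but a rare RNA gives too few reads for a peak, so a low share of genes with a region and a low RNA level cannot be told apart. In 48.9% of regions the input rate was at the flat genome rate in both libraries, and there the fold follows the CLIP reads alone.

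Long coding sequences were hit most often. Among genes whose longest coding sequence was at least 6000 nt, 189 of 457 had a region (41.4%). The share was 34.9% at 4000 to 6000 nt, 20.3% at 2000 to 3000 nt and 6.18% at 500 to 1000 nt. The median coding length was 1953 nt in target genes and 1173 nt over all. Per kb the differences were smaller, from 0.113 regions at 500 to 1000 nt to 0.235 at 6000 nt or more, and genes under 500 nt reached 0.223.

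**Figure D4:**
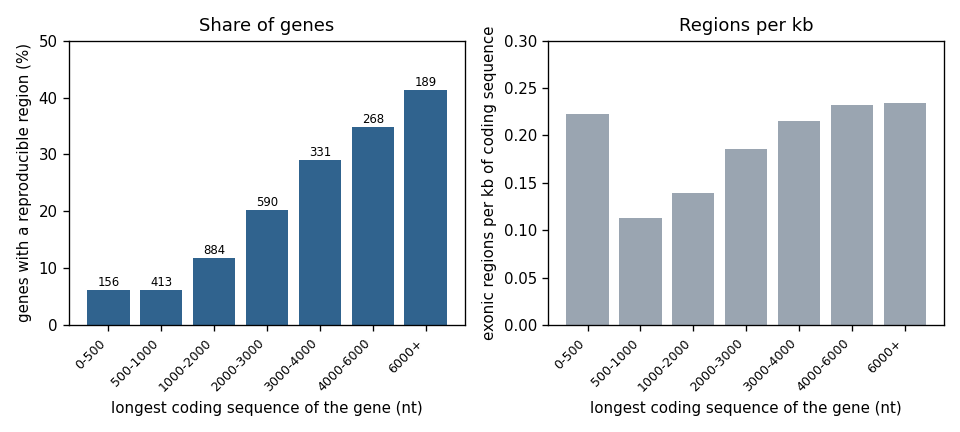
Protein-coding genes grouped by their longest coding sequence (horizontal, nt). The left panel gives the percent with a reproducible MBD6 region, with the number of such genes above each bar, and the right panel gives exonic regions per kb of coding sequence. The share of genes climbs to 41.4% in the longest class, while the right panel runs between 0.113 and 0.235.

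The genes with the most regions encode very large, often coiled-coil proteins. Dst, which encodes the cytoskeletal crosslinker dystonin, had 37 regions, with a best fold of 50.3 in replicate 1 and 58.0 in replicate 2. Tpr, a nuclear pore basket protein, had 23 and a best fold of 54.6 and 63.3. Dync1h1, the heavy chain of cytoplasmic dynein, had 20 and a best fold of 30.3 and 42.6, and Macf1, a microtubule-actin crosslinker, had 20 and a best fold of 43.0 and 28.9. Myh9, a non-muscle myosin heavy chain, had 19, and Sptan1, an alpha spectrin, had 16. Atrx, a chromatin remodeller, Akap9, a centrosome and Golgi scaffold, and Bdp1, a subunit of the RNA polymerase III factor TFIIIB, had 15 each. Golga4, a Golgi coiled-coil protein, had 14. The best site of Atrx, in coding exon 15 of 35, reached a fold of 86.0 and 62.3 with 130 and 129 summit reads.

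Counted per kb of coding sequence, genes with short coding sequences came first among those with at least 4 regions. All exonic regions of a gene were counted, including those in UTRs or non-coding transcripts, and set against its longest coding sequence. Ptma, which encodes the acidic protein prothymosin alpha, had 5 regions for 435 nt of coding sequence, or 11.5 per kb. Taf1d, a subunit of the RNA polymerase I factor SL1, had 8 regions for 966 nt, or 8.28 per kb. Its best site had a fold of 109 and 55.2. Nucks1 reached 7.12 regions per kb, Cbx5, the heterochromatin protein HP1 alpha, 6.98, and the acidic histone chaperone Anp32a 6.75. Rack1, a protein of the small ribosomal subunit, had 6.31 per kb, Npm1, which encodes nucleophosmin, 5.71, and Ywhae, a 14-3-3 protein, 5.23. The best Rack1 region was in an exon of a non-coding transcript, over an input rate of 6.49 and 6.07 reads.

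By fold enrichment, the leading sites were in Hsp90b1, Nrd1, Eif3a and Srek1. Hsp90b1 encodes the HSP90 chaperone of the endoplasmic reticulum, and its best site had a fold of 125 in replicate 1 and 108 in replicate 2, with 190 and 195 summit reads. A second Hsp90b1 site had a fold of 101 and 109, with 153 and 173 reads. Nrd1, the protease nardilysin, had a fold of 108 and 114. Eif3a, the largest subunit of initiation factor eIF3, had a fold of 102 and 118, with 214 and 246 reads. Srek1, an RS-domain splicing regulator, had a fold of 108 and 107. At these sites the input rate was low, from 0.524 to 1.10 reads in either library. At Eif3a it was 1.10 and 1.09, above the flat rates of its strand, 0.524 and 0.593.

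By summit reads above the input rate, small structured RNAs led. Rnu3a, a gene of the U3 small nucleolar RNA that guides early cleavage of the ribosomal precursor, had 606 and 630 reads over an input rate of 49.2 and 59.1, and a fold of 12.1 and 10.5. The mitochondrial 12S rRNA gene mt-Rnr1 had 605 and 597 reads at a fold of 8.62 and 5.92, in a region that ran on past the gene from position 130 to 2793. Rnu3b1, Rnu3b2, Rnu3b3 and Rnu3b4 had 497 to 519 reads in replicate 1 and 506 to 512 in replicate 2. The U3 genes are near-identical copies, and a read with up to 10 best placements was put at 1 of them, so how reads split among the copies is uncertain. An intergenic site at chr16:11143950-11144211 on the plus strand had 426 and 408 reads at a fold of 5.60 and 4.38.

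The 3 other sites in that ranking were on exons of Malat1, Hsp90ab1 and Trap1a. Malat1, a nuclear long non-coding RNA, had 370 and 360 reads at its best site over an input rate of 6.83 and 8.15, and a fold of 47.4 and 39.4. Hsp90ab1, the cytosolic HSP90, had 347 and 354 reads and a fold of 88.6 and 55.2. Trap1a, a tumour antigen gene on the X chromosome, had 304 and 322 reads and a fold of 123 and 91.2 in its first exon.

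Of the 37 gene lists, 33 had a larger share of genes with a region than the 12.9% of all protein-coding genes. The lists were chosen with earlier results of these data known, so this count reflects that choice as well as the data. The 12.9% does not allow for coding length: 29.0% of genes with 3000 to 4000 nt of coding sequence had a region. The shares carry no test. RNA levels were not measured, so a high share in a list cannot be told apart from high RNA levels of its genes. All 4 HSP90 genes had a region, with 23 regions and a median best fold of 52.7. Hsp90aa1 reached a fold of 33.4 and 33.7, and the mitochondrial Trap1 9.84 and 15.1. Of 15 HSP70 and HSP110 genes, 5 had a region, led by Hspa5, the endoplasmic reticulum chaperone BiP, at 55.4 and 46.4, and Hspa8 at 51.1 and 36.3. Of 9 CCT chaperonin and HSP60 genes, 7 had a region, with a median best fold of 15.1. Proteasome subunits had a region in 15 of 39, led by Psmd1 at 48.4 and 49.7.

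Genes of the translation machinery were frequent targets. Of 85 cytosolic ribosomal protein genes, 53 had a region (62.4%), at 2.11 regions per kb and a median best fold of 14.9. Rpl4 led them with a fold of 61.8 and 85.2, followed by Rpl22 at 40.3 and 44.7. Of 55 initiation factor genes, 30 had a region. Eif3a held 12 regions, and Eif3c reached a fold of 60.9 and 63.4 and Eif5b 57.1 and 59.8. Of 17 elongation and termination factor genes, 7 had a region, led by Eef1d at 49.9 and 22.1. Of 22 aminoacyl-tRNA synthetase genes and partners, 13 had a region, and their median best fold of 11.0 was below the 14.8 of all target genes.

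Ribosome biogenesis and splicing genes were also frequent targets. Of 55 nucleolar biogenesis genes, 37 had a region, at a median best fold of 21.2. Ncl, which encodes nucleolin, held 9 regions and reached a fold of 101 and 71.8, and Wdr43, of the small subunit processome, reached 96.8 and 76.4. Of 35 SR and RS-domain splicing genes, 29 had a region (82.9%), with 117 regions at 1.55 per kb and a median best fold of 25.8. Luc7l3 reached 75.9 and 75.2, Srsf11 80.7 and 67.8, and Srrm1 held 12 regions and reached 73.7 and 70.6. Of 28 hnRNP genes, 17 had a region, at a median best fold of 18.6, led by Hnrnpu with 9 regions and a fold of 42.0 and 36.1. Of 15 U5 snRNP and SF3 genes, 12 had a region, at a median best fold of 15.6, led by Sf3b2 at 44.2 and 65.4.

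RNA helicases and paraspeckle proteins followed. Of 53 DEAD and DEAH box genes, 34 had a region, led by Ddx10 at 85.3 and 83.5 and Ddx21 at 73.0 and 68.1. Of 8 paraspeckle and FET genes, 7 had a region, at a median best fold of 31.1. Sfpq reached 87.4 and 84.8, Matr3 52.5 and 69.8, Pspc1, a partner of TET2 in the study, 58.4 and 54.6, and Nono 35.4 and 26.7.

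**Figure D5:**
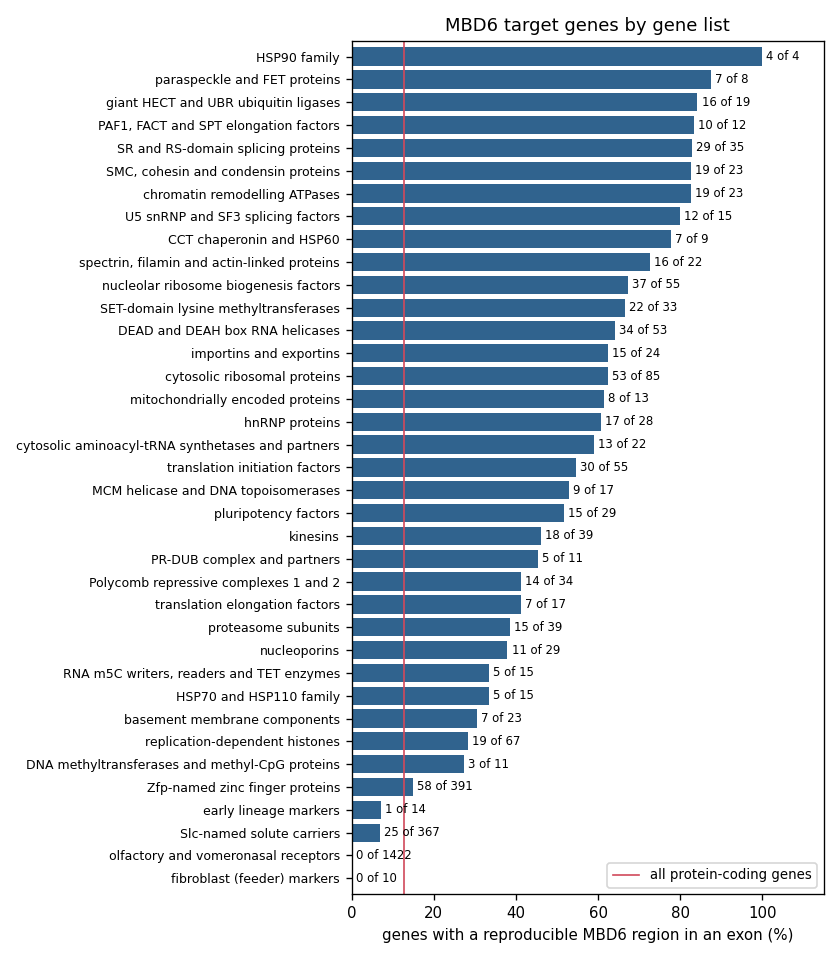
Percent of the genes of each of the 37 lists that had a reproducible MBD6 region in an exon (horizontal bars), with the number of such genes and of genes in the list. The vertical line marks all protein-coding genes, at 12.9%, and 33 lists end beyond it. The lists were chosen with earlier results of these data known.

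Chromatin genes were hit across several families. Of 23 chromatin remodelling ATPase genes, 19 had a region (82.6%), with 119 regions and a median best fold of 25.1. Chd6 reached 44.0 and 48.98, Chd4, of the NuRD complex, held 14 regions and reached 43.5 and 48.1, and Chd2 also held 14. Of 33 SET-domain methyltransferase genes, 22 had a region, led by Setd5 at 62.1 and 66.3 and the H3K9 methyltransferase Ehmt1 at 35.4 and 39.6. Of 34 Polycomb genes, 14 had a region. The 4 highest, Eed at 47.2 and 47.7, Mtf2 at 36.6 and 36.1, Jarid2 at 35.4 and 37.3, and Suz12 at 36.3 and 36.3, all belong to the H3K27 methylating complex PRC2 or join it. Of 12 PAF1, FACT and SPT genes, 10 had a region, at 1.64 regions per kb and a median best fold of 29.1. Supt6, a histone chaperone of elongating polymerase, led with 9 regions and a fold of 61.9 and 38.8.

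Genes for chromosome structure and replication varied by list. Of 23 SMC, cohesin and condensin genes, 19 had a region, with 79 regions and a median best fold of 26.3. Smc1a, a cohesin core subunit, held 10 regions and reached 68.4 and 63.0, and the cohesin release factor Wapl reached 48.9 and 48.7. Of 17 MCM and topoisomerase genes, 9 had a region, at a median best fold of 12.8, and Top2a held 14. Of 67 replication-dependent histone genes, 19 had a region, at a median best fold of 12.5, led by the linker histones Hist1h1a at 47.4 and 31.9 and Hist1h1b at 46.5 and 28.7. Histone genes are close copies of each other, and reads may be split among them.

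Transport, cytoskeletal and ubiquitin ligase genes had many regions over long coding sequences. Of 24 importin and exportin genes, 15 had a region, and of 29 nucleoporin genes, 11 had one, with Tpr holding 23 of their 48 regions. Of 22 spectrin, filamin and actin-linked genes, 16 had a region, with 157 regions at 0.779 per kb. Of 19 giant HECT and UBR ligase genes, 16 had a region (84.2%), at 0.446 per kb, and Huwe1 held 14. Of 39 kinesin genes, 18 had a region, led by Kif20b at 50.9 and 52.7. The median coding length was 7628 nt in the spectrin list and 7854 nt in the ligase list, so the 41.4% of long genes is the nearer background for both. For the kinesin list, with a median of 3102 nt, the nearer background is the 29.0% of genes of 3000 to 4000 nt. Of 23 basement membrane genes, 7 had a region (30.4%), which is below the 34.9% of genes with a coding sequence of 4000 to 6000 nt, the class that holds the list's median of 5073 nt. The count was 11 without replicate 2 and 4 with peaks of at least 10-fold. Lamc1 held 9 and reached 72.9 and 27.7.

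Of the 37 lists, 4 were not above the background, and the Zfp-named genes were just above it. None of 1422 olfactory and vomeronasal receptor genes had a region, and 25 of 367 Slc-named solute carriers (6.81%) and 58 of 391 Zfp-named zinc finger genes (14.8%) did. For the markers of the labelled cell type, of 29 pluripotency factor genes, 15 had a region, 0 of 10 fibroblast markers had one, and of 14 early lineage markers only Nes did. Pou5f1, which encodes OCT4, had a fold of 6.99 and 8.27, Sox2 of 8.32 and 7.48, and Nanog of 12.98 and 14.1. L1td1 led the list with 4 regions and a fold of 50.7 and 51.9, and Zfp42, which encodes REX1, had 40.1 and 40.9. Klf4, Prdm14 and Lin28a had no exonic peak in either library.

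Transcripts of MBD6's own partners were targets in part. Of 11 PR-DUB genes, 5 had a region, and 3 did with peaks of at least 10-fold. Asxl1 had 5 regions, of which the best, in the 5′ UTR, had a fold of 17.9 and 14.8 with 46 and 43 reads. Asxl2 had 4 and a best fold of 19.2 and 11.0. Ogt, the O-GlcNAc transferase, had 2 regions and a best fold of 11.4 and 17.2, Bap1 had 1 at 7.56 and 14.2, and its partner Hcfc1 had 1 at 8.53 and 7.67. Asxl3, Foxk1, Foxk2 and Kdm1b had no exonic peak in either library. Mbd5 and Mbd6 had none in replicate 1 and 1 each in replicate 2. The median best fold of the 5 genes, 14.3, was near the 14.8 of all target genes. The median coding length of the list was 3138 nt, and 29.0% of genes of 3000 to 4000 nt had a region. The list held 0.312 regions per kb, against 0.176 over all protein-coding genes.

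Of 15 genes that write, bind or oxidise RNA m5C, 5 had a region, with 26 regions and a median best fold of 24.7. Tet1 held 11 of them, 10 in coding sequence and 1 in the 5′ UTR. The 5′ UTR region, at chr10:62879565-62880036, had a fold of 28.1 and 41.1 with 123 and 154 reads, and the best coding region, in exon 4 of 13, had 25.2 and 30.8. Tet2 had 4 coding regions: the best, in exon 10 of 11, had a fold of 25.2 and 24.3, and the other 3, all in exon 3, ran from 7.06 to 11.0 in replicate 1 and from 6.08 to 10.0 in replicate 2. Tet3 had no exonic peak in either library. Nsun2, which writes m5C in tRNA and mRNA, had 4 coding regions with a best fold of 18.6 and 19.1. Nop2, which methylates 28S rRNA, had 5 with a best fold of 28.3 and 30.6.

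Ybx1, an m5C-binding protein, had 2 regions. At its best site the fold was 36.5 and 12.5 although the summit reads were 89 and 86, since the input rate was 1.46 in replicate 1 and 5.98 in replicate 2. Nsun5 had 2 peaks in replicate 1 and none in replicate 2, and Alyref none and 1. Nsun3, Nsun4, Nsun6, Nsun7, Trdmt1, Alkbh1 and Alyref2 had none in either. Of 11 genes for DNA methyltransferases and methyl-CpG proteins, Dnmt1 had 6 regions and a best fold of 27.8 and 44.3, while Dnmt3l had 1 at 11.1 and 11.4. In this list 3 genes had a region, and 5 did without replicate 1.

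Non-coding transcripts held 1004 regions. By gene type, 502 regions were on 443 processed pseudogenes, of 9941 annotated, and their windows resembled coding ones, with 37.9% A and GAAGA in 43.8%. Processed pseudogenes are copies of mRNAs, so reads of the parent gene may have been placed on them. Genes annotated as snoRNA had a region in 224 of 1507 (14.9%). Their windows did not share the composition: the 143 windows at snoRNA genes had 25.6% A, 29.1% T and GAAGA in 5.59%. At 56 snRNA regions GAAGA was in 1.79% of windows, and it was in none of 46 windows at genes annotated as rRNA, which allows a share of up to 6.52% by counting error. The input rate was higher there as well, with a median of 2.20 reads at snoRNA regions and 5.12 at snRNA regions, against 0.651 at protein-coding genes.

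By symbol, 60 of 99 Snord genes, whose C/D box RNAs guide ribose methylation, and 27 of 42 Snora genes, whose H/ACA box RNAs guide pseudouridylation, had a region. The median best fold was 11.8 and 15.5. Snord89 led the first with 49.9 and 29.3, and Snora74a the second with 40.8 and 51.5. Of 9 Scarna genes, for RNAs of Cajal bodies, 7 had a region, and of 4 Rn7s-named genes all 4 did at a median best fold of 5.42.

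Long non-coding RNAs were rarely hit. Of 5854 lincRNA genes, 22 had a region (0.376%). Malat1 held 9 regions, whose mean folds ran from 4.22 to 43.4. The snoRNA host genes Gas5 and Snhg1 held 7 each, and Gm26917 held 5 at mean folds of 3.49 to 6.63. A region can count both for a snoRNA gene and for its host gene, so these counts can overlap the snoRNA counts above. Snord99 and Snhg12, for example, had the same best fold, 29.1 and 24.1, with the same reads, 116 and 108. The best Gas5 region was read on a transcript of 1 exon. The best Gm26917 region lay over a high input rate, 32.6 and 36.3 reads. Gm12346, a transcribed processed pseudogene, held 4, with a best fold of 55.3 and 44.4. Of the 13 protein genes of the mitochondrial genome, 8 had a region, at a median best fold of 4.39. They had many reads, 264 and 295 at mt-Co2, over a high input, and the fold there was 8.29 and 9.20.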

How the data were processed

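Peak lists of 2 Flag-MBD6 CLIP libraries, called against Flag-MBD6 input, were used. The authors collapsed duplicate reads, removed rRNA reads, aligned without splicing to mm10 with Bowtie 1.0.0 (up to 3 mismatches and 10 placements), split strands with SAMtools 1.16.1 and called peaks with MACS2 2 (150-nt extension, genome size 130000000, at most 5 duplicates, q below 0.01). The deposited columns are a score, the fold enrichment ratio, −log10 p, −log10 q and the summit offset, of which the score was not analysed. Summit reads k and input rate were solved from (k + 1)/(rate + 1) = fold and the Poisson p. Peaks were merged at 1 bp and assigned 15 nt inside their 5′ end to GENCODE M21 exons, coding before UTR before non-coding, with Python 3.11.15, NumPy 2.4.6, SciPy 1.17.1 and matplotlib 3.10.9. The steps were tested on simulated data. Windows of 30 nt came from the transcripts and were compared with all positions of the same coding sequences. Members and gene lists were chosen with earlier results of these data known. Named sites are the 10 with the best mean rank of summit reads above the input rate and the 5 by fold; named genes are the 10 coding and 5 non-coding with most regions, up to 4 members of a list by best fold, and the PR-DUB and m5C members. Genes ranked by density, the small RNA families and some cell markers were named after their values were seen. Alternatives covered q, fold, overlap, position, window, transcripts and each library. Some results are not reported here.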

Additional observations from a re-analysis of the deposited data

How the results depend on the processing

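Of 43 alternative values of the main results, 34 stayed close to the reported ones (counts within 1.5 times, shares within the 95% interval). With peaks of at least 10-fold, regions fell from 7484 to 4335 and the coding share was 82.7%. The coding share was 55.8% at the midpoint and 58.5% at the summit. For the sequence at the 5′ end, the reference of this comparison was the windows of all exons. There G preceded 73.1% and GAAGA was in 43.9%. With coding windows only, as reported above, G preceded 75.5% and GAAGA was in 46.6%. GAAGA was in 27.8% of 20-nt windows of all exons, which have fewer positions. With either library left out, regions ran from 9218 to 9587 and genes from 3315 to 3399. In windows of all exons, G before the end then ran from 71.9% to 72.5% and GAAGA from 44.9% to 45.9%. Of 185 alternative counts of single lists, 172 stayed within 1.5 times; at 10-fold, ribosomal protein genes fell from 53 to 34, PR-DUB genes from 5 to 3, basement membrane genes from 7 to 4 and mitochondrially encoded genes from 8 to 0. No paired analysis was possible because no result came from a test. Limits: no RNA level or untagged control was measured here, the libraries count as 1 sample, 48.9% of regions rest on a flat input rate, reads across splice junctions were not placed, and reads of repeated genes cannot be assigned to a copy.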

Other observations

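Peaks seen in a single library had a lower median fold than those in both. In the 1270 coding windows found in replicate 1 alone, A was at 37.0% and GAAGA was in 46.1%, and in the 1566 found in replicate 2 alone, A was at 36.7% and GAAGA was in 42.9%. G preceded 73.1% and 73.2% of these windows. CTCCA was in 6.54% and 4.92%, against 3.71% of the coding windows of reproducible regions, and T was at 15.7% in both.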
